A study of Mus musculus with 6 samples.

Results

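Shelterin is the protein complex that covers the ends of chromosomes, and its mouse subunits are encoded by Acd, Terf1, Terf2, Terf2ip, Tinf2, Pot1a and Pot1b. These 7 genes and Tert, the catalytic subunit of telomerase, were described in RNA-seq of mouse melanoma tissue. The 8 members were listed by name and matched by gene symbol, and all 8 were found among the 53801 gene identifiers of the count tables. Acd was chosen by its high read number in a single sevoflurane-primed tumour, and the other genes were listed to set it against. Its values in the SEVO against CTRL contrast are therefore a description and carry no test here.

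Double-stranded telomeric repeats are bound by TRF1 and TRF2, the products of Terf1 and Terf2, and RAP1, the product of Terf2ip, binds to TRF2. TIN2, encoded by Tinf2, bridges TRF1 and TRF2 and holds TPP1, encoded by Acd. TPP1 carries POT1, the protein on the single-stranded overhang, and brings telomerase to the chromosome end. Mice have the paralogs Pot1a and Pot1b, and many tumour cells keep Tert active.

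RNA came from pieces of tumours grown under the skin of awake wild type C57BL/6 mice after injection of B16-F10, a line of mouse skin melanoma cells. In the SEVO group (n = 3 tumours) the cells had been primed with sevoflurane vapour, an inhaled anaesthetic, before injection, and in the CTRL group (n = 3 tumours) they had not. Only the injected cells met the anaesthetic, and the tissue also holds cells of the host. The labels do not say whether the tumours of a group came from separate mice, so p-values measure the spread between these samples.

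Each tumour had 723431 to 1348676 reads on genes, 2.06% to 4.61% of the uniquely aligned reads. The predicted genes Gm10800 and Gm10801 took 1.31% of the counted reads in CTRL 2 and 49.0% in CTRL 1, with 35.5% in CTRL 3 and 7.97% to 18.7% in the SEVO tumours. The labels name the cell type monocytes but the tissue melanoma. All 7 melanoma markers had reads, with sums of 993 to 1056 in the CTRL and 515 to 1506 in the SEVO tumours. The 8 monocyte and macrophage markers summed to 139 to 277 reads per tumour. Of these, 1137 reads lay on Csf1r, whereas Lyz2, Itgam and Cd14 had 5 to 9 reads each over all 6 tumours. The remaining marker lists are given beside the results they move with.

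Acd (ENSMUSG00000038000.10) lies at chr8:105695860-105701102 on the minus strand of GRCm38. Its annotated exons cover 3625 bases, and 1208 of these lie opposite exons of Carmil2, a gene for an actin regulator of T cells at chr8:105686274-105698187 on the plus strand. Tinf2 (chr14:55674689-55681820, minus strand) has 4938 exon bases, of which 1540 lie opposite exons of Gmpr2, a guanosine monophosphate reductase gene at chr14:55671941-55679200 on the plus strand. Terf2ip has 108 exon bases opposite the predicted gene Gm6793, and the other 5 members have 0 exon bases opposite another gene. HTSeq, the counting program, assigns a read to a gene by position and, if set so, by strand. Its strand setting and the strand of the library kit are not given in the sources used here. Without strand, reads from exon bases shared by a gene and its partner on the opposite strand cannot be told apart. Reads that HTSeq finds ambiguous between genes are set aside and are in the count of neither gene.

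The overlap of Tinf2 and Gmpr2 reaches into protein-coding sequence on both strands. The following 84 bases are shown because a read from their middle, taken without its strand, could stem from either gene. They are a coding part of a Tinf2 exon at chr14:55677198-55677281, taken from the GENCODE M21 transcripts of GRCm38 and written 5′ to 3′ on the minus strand. Capitals mark 43 bases that also lie in a coding exon of Gmpr2.
Tinf2: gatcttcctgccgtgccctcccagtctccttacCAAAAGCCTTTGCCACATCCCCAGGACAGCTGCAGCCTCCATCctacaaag

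The members were read at very unequal depth. Tinf2 held 1685 of the reads on the 8 genes (79.3%), Acd 222 (10.4%) and Pot1a 72 (3.39%). The other 5 members had 22 to 35 reads each over all 6 tumours. The filter on low counts of edgeR, filterByExpr, kept Acd, Tinf2 and Pot1a among 7561 genes, so 3 of the 8 members could be compared in the filtered fit. Normalised read counts are given as CPM, counts scaled to a common effective library size, at which 1 read was worth 1.07 to 1.25 CPM.

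**Figure D1:**
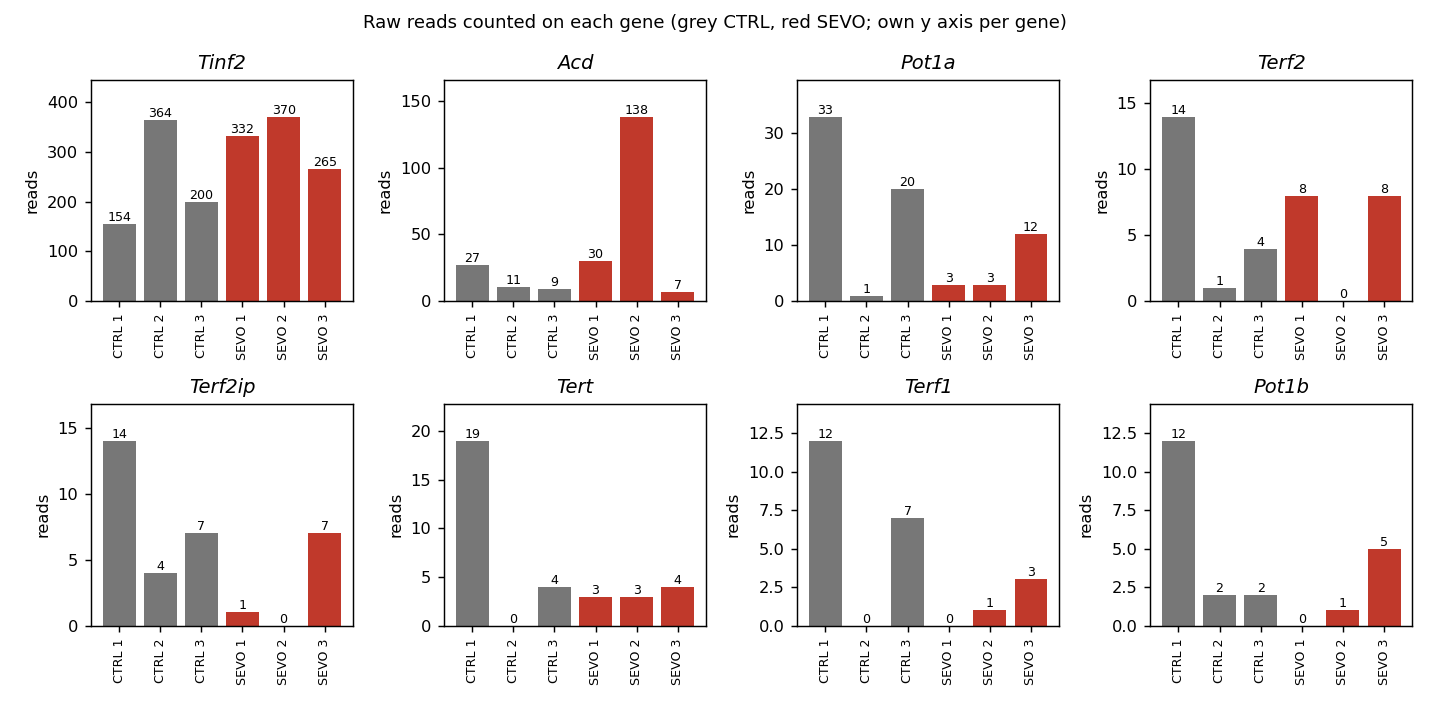
Bars give the raw reads (y axis, own scale per panel) counted on each of the 8 members in each tumour (x axis, grey CTRL, red SEVO). Acd stands out in SEVO 2 with 138 reads, and Pot1a, Terf2, Terf2ip, Tert, Terf1 and Pot1b have their highest bar in CTRL 1.

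Acd, which encodes the subunit that recruits telomerase, had 27, 11 and 9 reads in CTRL 1 to 3 and 30, 138 and 7 reads in SEVO 1 to 3. SEVO 2 was the highest tumour and SEVO 3 the lowest, so the groups overlapped. In CPM the 3 CTRL tumours had 32.8, 13.8 and 10.3 and the 3 SEVO tumours 34.5, 148 and 7.63. The mean was 19.0 ± 12.1 CPM in CTRL and 63.4 ± 74.5 CPM in SEVO (SD, n = 3 each). The edgeR log2 fold change was 1.74 with a standard error of 0.78, and without SEVO 2 it was 0.29.

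Carmil2, on the opposite strand, did not share the peak of SEVO 2. It had 48, 38 and 18 reads in CTRL 1 to 3 and 44, 54 and 34 in SEVO 1 to 3. SEVO 2 had the most reads, with 6 more than CTRL 1, and in CPM CTRL 1 was the highest. Its mean was 42.2 ± 19.4 CPM in CTRL and 48.5 ± 10.6 CPM in SEVO (SD, n = 3 each). The log2 fold change was 0.20 with a standard error of 0.41 (edgeR quasi-likelihood test, adjusted p = 0.853; 95% interval of the fit -0.67 to 1.08), which is within the spread between tumours, and it was -0.06 without CTRL 3.

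Acd took 36.0%, 22.4% and 33.3% of the reads on Acd and Carmil2 in CTRL 1 to 3. In SEVO 1 to 3 its share was 40.5%, 71.9% and 17.1%. The exact 95% binomial interval (Clopper-Pearson) of SEVO 2 ran from 64.9% to 78.1%, a description of the tumour for which Acd was chosen. The mean share was 30.6 ± 7.18% in CTRL and 43.2 ± 27.5% in SEVO (SD, n = 3 each), a difference of 12.6 percentage points that was -1.79 without SEVO 2. The intervals take each read as an independent draw and leave out the spread between tumours. Since the reads carry no molecular identifiers, copies of a molecule are not recognised, and the intervals may be too narrow.

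**Figure D2:**
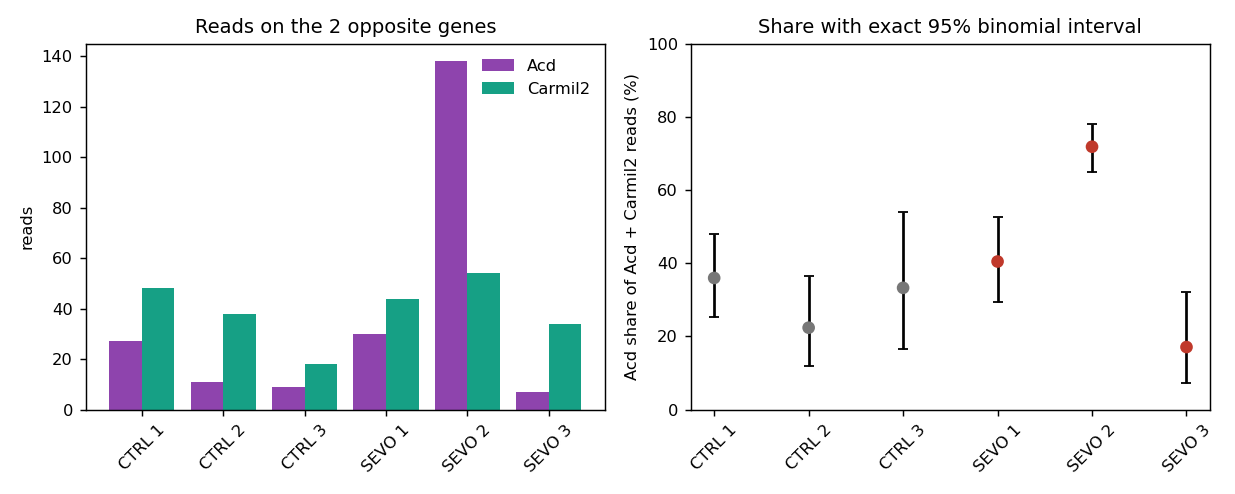
Left, reads (y axis) on Acd and Carmil2 in each tumour; right, the Acd share of these reads in percent (y axis, grey CTRL, red SEVO) with exact 95% binomial intervals. SEVO 2 lies at 71.9%, and the other 5 tumours lie between 17.1% and 40.5%.

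The genes within 20 kb of Acd did not carry a peak in SEVO 2 either. Pard6a, a cell polarity gene that begins 46 bases beyond Acd on the plus strand, had 10, 6 and 11 reads in CTRL and 7, 7 and 9 in SEVO. Enkd1 had 8, 7 and 9 against 6, 14 and 16 reads, and 4933405L10Rik had 17 in each CTRL tumour against 17, 19 and 22. Gfod2 had 0 reads in SEVO 2 and 1 to 16 in the other tumours. Ctcf, the insulator protein gene 12938 bases away, had 22, 24 and 20 reads in CTRL and 14, 16 and 10 in SEVO, with no overlap of the groups in CPM. Its log2 fold change was -0.85 with a standard error of 0.46 and did not pass the test (edgeR, adjusted p = 0.741). Non-overlapping groups were found for 8.56% of all 7561 genes tested.

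Tinf2, the bridge of the complex, was the member with the most reads in every tumour, with 154, 364 and 200 in CTRL and 332, 370 and 265 in SEVO. CTRL 1 was the lowest and SEVO 2 the highest tumour, and in CPM CTRL 2 lay above all 3 SEVO tumours. The mean was 291 ± 145 CPM in CTRL and 356 ± 58.4 CPM in SEVO (SD, n = 3 each). The log2 fold change of 0.29 with a standard error of 0.41 was within the spread between tumours (edgeR, adjusted p = 0.807; 95% interval of the fit -0.59 to 1.17). An exact two-sided permutation test over the 20 splits of the tumours gave p = 0.6, where 0.1 is the smallest p possible.

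Gmpr2 was low and high in much the same tumours as Tinf2, with 46, 128 and 50 reads in CTRL and 96, 96 and 71 in SEVO. The ratio of Tinf2 to Gmpr2 reads stayed between 2.84 and 4.0 over the 6 tumours. That of Acd to Carmil2 ran from 0.206 to 2.56. The upper end came from SEVO 2, the tumour for which Acd was chosen, with 138 Acd and 54 Carmil2 reads. It is a description of that tumour and no measure of how stable the pair is. Gmpr2 itself differed by a log2 fold change of 0.09 with a standard error of 0.42 (edgeR, adjusted p = 0.936). The share of reads that HTSeq set aside as ambiguous between genes was 0.413% to 0.684% of counted and ambiguous reads.

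Pot1a, which encodes a protein for the single-stranded overhang, had 33, 1 and 20 reads in CTRL and 3, 3 and 12 in SEVO. CTRL 2 was the lowest of all tumours and CTRL 1 the highest, so the SEVO values lay within the CTRL range. In CPM the mean was 21.4 ± 19.5 in CTRL and 6.59 ± 5.63 in SEVO (SD, n = 3 each). The log2 fold change of -1.68 with a standard error of 0.91 did not pass the test (edgeR, adjusted p = 0.741; 95% interval of the fit -3.64 to 0.28), and it was -0.87 without CTRL 1 and -2.58 without SEVO 3. Its paralog Pot1b had 12, 2 and 2 reads in CTRL and 0, 1 and 5 in SEVO. The longest identical run of the annotated transcripts of Pot1a and Pot1b was 41 bases, and reads within such runs are uncertain between the paralogs.

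Terf1 and Terf2, whose products bind the telomeric duplex, were near the limit of detection. Terf1 had 12, 0 and 7 reads in CTRL and 0, 1 and 3 in SEVO. Terf2 had 14, 1 and 4 reads in CTRL and 8, 0 and 8 in SEVO. Both were highest in CTRL 1, and each had a tumour of either group with 1 read or none.

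Terf2ip, the gene of the TRF2 partner RAP1, had 14, 4 and 7 reads in CTRL and 1, 0 and 7 in SEVO. Gm6793 on its opposite strand had 1, 3 and 2 against 3, 5 and 1 reads. Tert had 19, 0 and 4 reads in CTRL and 3, 3 and 4 in SEVO, so 1 CTRL tumour was far above the rest and another had none. A count of 0 allows up to 3 reads, which is 3.22 to 3.76 CPM in these libraries. The snRNA gene Gm22654 opposite Pot1b had 4 reads over the 6 tumours, and the microRNA gene Mir7075 within Terf2 had 0.

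The 5 members below the filter were fitted together with all 42423 genes that had at least 1 read, on the same effective library sizes. The log2 fold change was -2.26 with a standard error of 1.29 for Terf1 and -0.35 with a standard error of 1.00 for Terf2. It was -1.72 with a standard error of 1.06 for Terf2ip, -1.50 with a standard error of 1.27 for Pot1b and -1.29 with a standard error of 1.04 for Tert. Adjusted p-values (edgeR) were 0.897 for Terf2 and 0.691 for the other 4 genes. Single tumours decided these sizes: without CTRL 1 the value was -0.13 for Pot1b, 0.98 for Terf2 and 0.62 for Tert, and without SEVO 3 it was -3.42 for Terf1 and -3.80 for Terf2ip. In the fit of all tumours the median over all 42423 genes was -0.96 and 78.4% of them were below 0, so lower fitted values in SEVO were the rule among genes with few reads. Fewer cells of a type and less RNA per cell cannot be told apart in such tissue samples.

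At an adjusted p under 0.05, 0 of the 2 members tested in the filtered fit, Tinf2 and Pot1a, were called, against a background of 0.00% of the 7561 genes tested. Neither had an unadjusted p under 0.05, against 4.36% of all genes tested (330 genes). Of the 5 members below the filter, 0 were called and 0 had an unadjusted p under 0.05, against a background of 0.00236% called in the fit of all genes (1 gene). DESeq2 also called 0 of 42422 genes, with 265 at an unadjusted p under 0.05. The CPM ranges of the groups overlapped for all 8 members, against 8.56% of the genes tested without overlap.

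**Figure D3:**
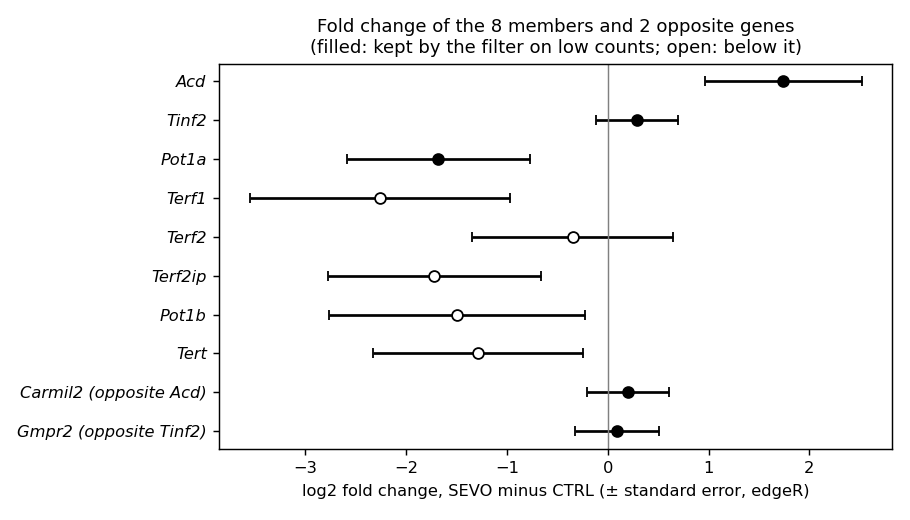
Points give the edgeR log2 fold change (x axis, SEVO minus CTRL) and bars its standard error for the 8 members, Carmil2 and Gmpr2 (y axis). Acd lies at 1.74, Tinf2 at 0.29, the genes opposite them at 0.20 and 0.09, and the 6 remaining members between -2.26 and -0.35.

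The 6 members other than Acd and Tinf2 each had their most reads in CTRL 1, but the next highest tumour differed between them. In CTRL 3 Pot1a had 20 reads, whereas Terf2 had 4 there against 8 in SEVO 1 and SEVO 3. The summed reads of the 6 members were 104, 8 and 44 in CTRL 1 to 3 and 15, 8 and 39 in SEVO 1 to 3. The sums were highest in CTRL 1 and CTRL 3, the tumours with the largest share of reads on Gm10800 and Gm10801, and lowest in CTRL 2, which had the smallest share, and in SEVO 2. The summed level was 62.3 ± 59.0 CPM in CTRL and 22.8 ± 17.6 CPM in SEVO (SD, n = 3 each). Marker lists of several host cell types, none with a marker at 0 in all tumours, were also highest in CTRL 1. The 3 endothelial markers summed to 67, 9 and 30 reads in CTRL and 9, 7 and 32 in SEVO. The 3 fibroblast markers summed to 104, 11 and 31 against 15, 8 and 43 reads, and the 6 T and NK cell markers to 78, 6 and 42 against 25, 26 and 30. Keratinocyte and skeletal muscle markers were highest in CTRL 1 too, with 16 and 28 reads, whereas the 4 erythroid markers had 129 reads there and 196 in CTRL 2. The sum of the monocyte and macrophage markers was lowest in CTRL 1, with 139 reads against 191 to 277 in the other tumours. Csf1r carried this sum, with 88 reads in CTRL 1 and 165 to 257 in the others. Adgre1, Cd68, Ly6c2 and Ccr2 were instead highest in CTRL 1, with 9, 17, 4 and 15 reads. Lyz2 was highest in SEVO 3 and Itgam in CTRL 3, and Cd14 had 2 reads in both CTRL 1 and CTRL 3. The part of these cells in the result was not tested.

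Olfactory receptor genes, which are expressed in sensory neurons of the nose, served as a measure of reads on genes that a skin tumour should lack. Only protein-coding ones whose exons overlap no exon of another gene on either strand were used. These 1077 genes had 1.55, 0.105 and 0.722 reads per kb of exon in CTRL 1 to 3 and 0.230, 0.266 and 0.478 in SEVO 1 to 3. The 6 low members had 3.07, 0.236 and 1.30 reads per kb in CTRL and 0.443, 0.236 and 1.15 in SEVO. Both were highest in CTRL 1 and followed in the same order by CTRL 3 and SEVO 3. The low members lay at 1.8 to 2.41 times the density of the olfactory receptor genes in 5 tumours and at 0.889 times in SEVO 2.

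**Figure D4:**
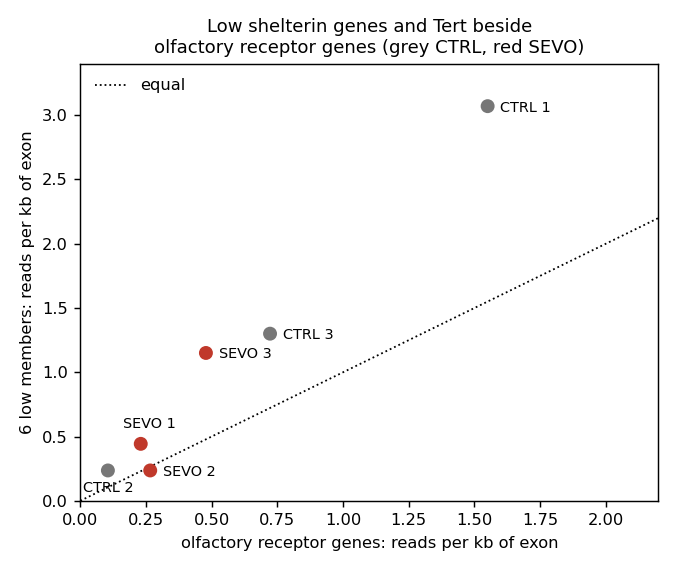
Each point is a tumour (grey CTRL, red SEVO), with reads per kb of exon on 1077 olfactory receptor genes on the x axis and on the 6 low members on the y axis. The points rise from CTRL 2 at 0.105 and 0.236 to CTRL 1 at 1.55 and 3.07, and SEVO 2 is the 1 point under the dotted line of equal density.

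Over all 6 tumours together, single olfactory receptor genes had a median of 2.92 reads per kb, with quartiles of 1.89 and 4.22. Pot1b lay within this range at 4.18 reads per kb, at or above 74.3% of the olfactory receptor genes. Terf1 had 4.99, Tert 5.76, Terf2ip 6.66, Terf2 7.61 and Pot1a 8.31 reads per kb, at or above 83.5% to 96.6% of them. Acd with 61.2 and Tinf2 with 341 reads per kb lay above all of them, and 38.1 of the 61.2 for Acd came from SEVO 2. The olfactory receptor genes used have no exon bases opposite another gene, whereas Acd has 1208 and Tinf2 1540.

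Scaled to length and library size as RPKM, CPM per kb of exon, the order over the 6 tumours was Tinf2 with 65.5 ± 21.3, Acd with 11.4 ± 14.8, Pot1a with 1.62 ± 1.75 and Terf2 with 1.48 ± 1.36 (SD, n = 6). Terf2ip followed with 1.31 ± 1.23, Tert with 1.13 ± 1.45, Terf1 with 0.975 ± 1.26 and Pot1b with 0.819 ± 1.01. Tinf2 was above Pot1a in 6 of 6 tumours by a mean of 63.9 RPKM (exact two-sided sign-flip permutation test, p = 0.031, the smallest possible, and 0.188 after adjustment over the 6 pairs of neighbours in this order with Acd left out). The other 5 such pairs did not differ beyond their spread (exact permutation test, adjusted p = 0.812 for each). Tinf2 had a level at or above 98.7% of the 21967 protein-coding genes, Acd 93.7%, Pot1a 62.3% and Pot1b 32.5%. The mean of Acd includes 40.8 RPKM in SEVO 2, the tumour for which it was chosen, against 2.11 to 9.52 in the others. With all reads kept but divided only by exon bases that no other gene covers, Tinf2 came to 95.2 and Acd to 17 RPKM. Reads on those bases alone were not counted.

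The pair of members with the highest levels is also the pair with more than 1000 exon bases opposite another gene. For Acd the level leans on SEVO 2, the tumour for which it was chosen, with 138 of its 222 reads. It lay above the 6 low members in every tumour, but narrowly in CTRL 3 and SEVO 3. There Acd had 2.85 RPKM against 2.65 for Pot1a and 2.11 against 1.9 for Terf2. Whether the overlap bears on the level was not tested. Among all protein-coding genes, the filter kept 16.5% of 16690 genes with 0 opposite bases and 43.6% of 4571 genes with fewer than 1000. It kept 69.0% of 706 genes with 1000 or more. The median density over the 6 tumours was 5.51, 10.3 and 26.5 reads per kb in these classes. Densities above 100 reads per kb, as for Tinf2, were found in 1.29%, 11.1% and 29.5% of the genes.

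**Figure D5:**
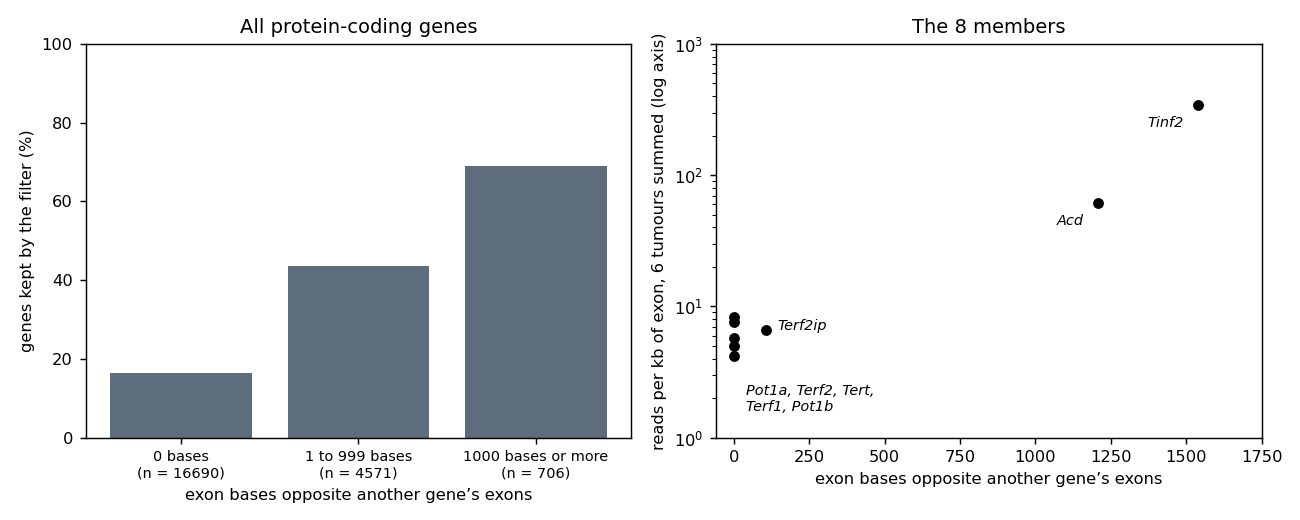
Left, the percent of protein-coding genes kept by the filter (y axis) by the number of exon bases opposite another gene (x axis); right, reads per kb of exon over the 6 tumours (log y axis) against opposite exon bases (x axis) for the 8 members. The bars are 16.5%, 43.6% and 69.0%, and Acd and Tinf2 lie apart from the other members on both axes. Of the 222 Acd reads, 138 came from SEVO 2.

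Genes of known strand gave further values on this point. mt-Nd6, the mitochondrial protein gene on the strand opposite to all others, had 360 to 804 reads per tumour, against 384 to 1076 for mt-Co1, 466 to 750 for mt-Cytb and 1216 to 2071 for mt-Nd5. These genes differ in length. Over all 6 tumours mt-Nd6 had 3425 reads on 519 exon bases and mt-Co1 3684 on 1545. mt-Cytb had 3503 on 1144 and mt-Nd5 9865 on 1824, so mt-Nd6 had the most reads per exon base. Bnip3, a hypoxia response gene, had 4 to 20 reads per tumour. The annotated antisense gene Gm45507, with 504 of its 519 exon bases opposite Bnip3 exons, had 1031 to 2854. The strand from which the counted reads came was not tested for any gene. If the counts were taken on the opposite strand, the values of all 8 members, their order of level and the Acd share would describe RNA of the other strand at these positions, and the sources used here do not settle this.

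Genes that assist telomerase, replicate chromosome ends, regulate shelterin or act in telomere chromatin or damage signalling were read from 3 lists with 40 genes in all. The filter kept 15 of them, and 0 were called at an adjusted p under 0.05. Of these 15, 0 were higher and 2 were lower in SEVO at an unadjusted p under 0.05, against 3.84% of all genes tested that were lower at this p. The median log2 fold change of the 15 genes was -0.26, with 3 above 0, and that of all tested genes was -0.02. Of the 25 genes below the filter, 24 had a value below 0, where 78.4% of all 42423 genes in that fit were below 0. An unadjusted p under 0.05 (edgeR) with a lower value in SEVO was found for 3 of the 25, against 4.80% of the genes in that fit.

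Among 12 telomerase partners, 4 were kept by the filter, with a median of -0.23. Ruvbl2, an ATPase that helps assemble telomerase, had the most reads, with 152, 123 and 174 in CTRL and 190, 301 and 227 in SEVO. Its SEVO tumours lay above the CTRL tumours in CPM, but the log2 fold change of 0.55 with a standard error of 0.34 did not pass the test (edgeR, adjusted p = 0.741). Nhp2, a protein of the telomerase ribonucleoprotein, had 13, 56 and 18 reads against 43, 46 and 34, a log2 fold change of 0.35 with a standard error of 0.50 (edgeR, adjusted p = 0.809). Nop10, a subunit of the same particle, had 9, 0 and 3 reads in CTRL and 0 in every SEVO tumour (edgeR, adjusted p = 0.691), and no fold is given at such counts.

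In the list of 14 genes for the CST complex and telomere replication, 4 were kept, with a median of -0.42. Pola1, the catalytic subunit of DNA polymerase alpha, had 30, 8 and 20 reads in CTRL and 5, 5 and 11 in SEVO. Its log2 fold change was -1.57 with a standard error of 0.64 (edgeR, adjusted p = 0.741). Prim2, a primase subunit, had 19, 5 and 14 against 1, 2 and 9 reads, and Dclre1b, which encodes the nuclease Apollo, had 22, 2 and 8 against 2, 3 and 2 (edgeR, adjusted p = 0.691 for both). All 3 were highest in CTRL 1, as the low members were.

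A list of 14 genes held regulators of shelterin and genes of telomere chromatin or damage signalling. Of these, 7 were kept, among them Atrx, Rad50, Atm and Atr, with a median of -0.26. Tnks2, which encodes the poly-ADP-ribosylating enzyme tankyrase 2, had 40, 16 and 44 reads in CTRL and 9, 14 and 15 in SEVO. In CPM the SEVO tumours lay below all CTRL tumours, with 39.7 ± 17 in CTRL and 13.9 ± 3.15 in SEVO (SD, n = 3 each). The log2 fold change was -1.50 with a standard error of 0.48 and failed the correction over all genes (edgeR, adjusted p = 0.741). An exact permutation test gave p = 0.1, the smallest possible.

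By the correlation of log2 CPM over the 6 tumours, which share the same normalization, the genes most like Acd were Cntnap1 (r = 0.984), Gm15718 (r = 0.972), Susd1 (r = 0.961), Pde6g (r = 0.950) and Optc (r = 0.947). All 5 had their most reads in SEVO 2, which follows from choosing them by likeness to Acd, with for example 190 for Optc against 58 to 106 in the other tumours and 86 for Cntnap1 against 45 to 63. These are the 5 highest values among 7561 genes. Among the members, the closest pairs were Terf1 and Pot1a (r = 0.976), Pot1a and Tert (r = 0.863) and Terf2ip and Pot1b (r = 0.858). Tinf2 ran opposite to the 6 low members, with r between -0.996 with Pot1a and -0.7 with Terf2. Acd had r between -0.663 with Terf2ip and 0.262 with Tinf2. With 0 to 33 reads per gene, the correlations among the 6 low members follow the few tumours in which those genes had reads. The same limit holds for the correlations of Tinf2 and Acd with them. No values over all genes are set beside the correlations of the members, so they are not read as particular to these genes.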

How the data were processed

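Raw read counts per gene, without normalization, were deposited by the authors for 6 tumours. The submitters' processing notes and the study's methods name Trimmomatic 0.36, STAR 2.6.0c, SAMtools 1.8.3 and HTSeq 0.9.1 on GRCm38.p6 with GENCODE M17, after removal of ribosomal reads. Gene symbols, positions and exon overlaps came from GENCODE M21 on the same genome build, in which 53706 of 53801 identifiers were matched. HTSeq tallies of reads on no gene stayed out of library sizes and tests. They held 27930688 to 41026677 reads per tumour on no feature.

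SEVO and CTRL were compared with the quasi-likelihood test of edgeR 4.0.16 (R 4.3.3) on the genes kept by filterByExpr, with TMM library sizes and Benjamini-Hochberg adjustment over all genes tested. Standard errors were derived from the F statistic. Correlations used log2 CPM with a prior count of 2. On simulated counts with 200 of 7561 genes changed, 10.2% of 2-fold and 79.8% of 4-fold changes were called. The simulation drew each gene independently and only for genes kept by the filter. It therefore holds no pattern shared by the genes of a tumour and does not cover members below the filter. DESeq2 1.42.0, other library sizes and filters, a replicate block and leaving out each tumour were alternatives. Replicate numbers were shared by both groups, and correlations of same-numbered tumours of -0.397, 0.320 and 0.0879 did not pair them.

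The members and lists were chosen with earlier results of these data known. Genes named were the 8 members, the genes opposite them or within 20 kb of Acd, genes of the 3 telomere lists with an unadjusted p under 0.05 or otherwise the 2 with most reads, the 5 genes most correlated with Acd, the 3 closest pairs of members and the genes for strand. The olfactory receptor genes and the classes of opposite overlap were added after the counts had been seen.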

Additional observations from a re-analysis of the deposited data

How the results depend on the processing

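At an adjusted p under 0.05, 0 members and 0 genes of the telomere lists were called under every alternative run. Over all genes the count of calls was 0 except with the replicate block, where it was 1, and without CTRL 2, where it was 31, so that leaving out 1 tumour gave a range of 0 to 31. Over the 12 alternatives with a value for them, log2 fold changes kept their sign but not their size for Acd (0.29 to 2.46), Terf1 (-3.42 to -1.39), Terf2ip (-3.80 to -1.06), Pot1a (-2.58 to -0.87) and Pot1b (-3.20 to -0.13). The value nearest 0 came without CTRL 1 for Terf1, Pot1a and Pot1b and without SEVO 2 for Acd and Terf2ip, and the lowest value of Terf1, Terf2ip, Pot1a and Pot1b came without SEVO 3. Tinf2 ran from 0.06 to 0.92 over 13 alternatives. Of the genes followed here, Tinf2 and Carmil2 had a value with at least 10 reads in every tumour. Terf2 changed from -0.35 to 0.07 with library size only, to 0.35 with no filter on low counts and to 0.19 with the DESeq2 Wald test, and ran from -0.69 to 0.98 when a tumour was left out. Tert ran from -1.70 to 0.62, with the positive value without CTRL 1. Carmil2 was -0.02 with at least 10 reads in every tumour and ran from -0.06 to 0.51 when a tumour was left out. The cause of these changes was not tested. Over the genes of each fit, the median log2 fold change was 0.22 with library size only, -0.18 with uniquely aligned reads as the library size, -0.38 with no filter and -0.55 in DESeq2. The level of Tinf2 moved from 65.5 to 95.2 RPKM when all its reads were divided by only the exon bases that no other gene covers. This changes the length alone, since reads were not restricted to those bases. With the replicate block the log2 fold change of Pot1a was -1.36, and the block called 0 members, while the replicate numbers do not pair the samples. Genes with an unadjusted p under 0.05 numbered 95 without CTRL 1 and 2550 without CTRL 2. Depth limits the 6 low members most, since a count of 0 in a tumour allows up to 3.76 CPM.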
